A study of Mus musculus with 56 samples.

Results

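The potassium channel genes of the mouse were examined in ribosome-bound mRNA of spinal cord motor neurons and in whole spinal cord RNA. They were taken by name, as every gene whose symbol starts with Kcn followed by lower-case letters and a number, leaving out 2 further matches, the antisense transcripts Kcnd3os and Kcnab3os. This gave 96 of the 43629 genes in the count tables, in 20 subfamilies. Of these, 93 were annotated as protein coding and 3 as noncoding (Kcnq1ot1, Kcnmb4os1 and Kcnmb4os2). After the filter on low counts 87 of the 96 were tested, among 18838 genes in all. The 9 not tested were Kcnk15, Kcnk16, Kcnk18, Kcnmb3, Kcnmb4os1, Kcne1, Kcne3, Kcng3 and Kcnj1.

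Translating ribosome affinity purification of motor neurons (MN-TRAP) pulls down ribosomes that carry a green fluorescent protein tag on the large subunit protein L10a. The mice of all groups carried this tag in the Chat bacTRAP transgene (line DW167), in which regulatory sequence of the choline acetyltransferase gene drives it, so that all cholinergic cells of the cord can contribute, not only motor neurons. Chat bacTRAP; hTDP-43 A315T mice also carried human TDP-43 with the A315T mutation of amyotrophic lateral sclerosis (ALS) under the prion promoter, which is active in many cell types and not only in neurons. Chat bacTRAP; hTDP-43 WT mice carried normal human TDP-43 under the same promoter, and Chat bacTRAP mice carried no human TDP-43. These groups are called A315T, hTDP-43 WT and Chat bacTRAP. All mice were reported as female and as congenic on C57BL/6J, and the cord is given as cervical in the sample labels and as whole in the study's methods. MN-TRAP libraries numbered 4 at 14 weeks and 5 at 9 weeks for A315T, 5 and 3 for hTDP-43 WT, and 4 and 4 for Chat bacTRAP. Spinal cord libraries, made from part of the same kind of lysate, numbered 4 and 5, 5 and 6, and 5 and 6 in the same order of genotypes and ages. The labels do not say which MN-TRAP and cord libraries came from the same animal, and p-values measure the spread between these libraries.

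Gene-assigned counts per library ranged from 472447 to 255802240 in MN-TRAP (median 19553070) and from 17493897 to 86654485 in spinal cord (median 40384236). Values are given in CPM, counts per 1000000 of the normalised library size. Chat had 39.5 to 264 CPM in MN-TRAP and 7.34 to 31.7 CPM in spinal cord, and Mbp, a myelin gene, had 372 to 2978 CPM in MN-TRAP and 3564 to 7185 CPM in spinal cord. A glial score was taken as the mean log2 CPM of 31 marker genes, of which 5 mark endothelial cells and the others glia. It was 3.45 to 4.52 in A315T MN-TRAP libraries, 3.97 to 6.31 in hTDP-43 WT, 3.66 to 6.62 in Chat bacTRAP, and 6.43 to 7.39 in spinal cord. Glial RNA was thus present in every MN-TRAP library, and the highest A315T score lay below the highest scores of both control groups. Some libraries were in doubt. Lamr1-ps1, a pseudogene, had 0.535 to 3.13 CPM in all 18 A315T libraries and 1.27 to 1.96 CPM in 3 MN-TRAP libraries labelled as controls, against at most 0.0374 CPM in the other 35 control libraries. These 3 were labelled hTDP-43 WT 14 weeks replicate 5, hTDP-43 WT 9 weeks replicate 3 and Chat bacTRAP 9 weeks replicate 4. Of them, the first differed from A315T 14 weeks replicate 3 by a chi-square per gene of 1.34 and the third from A315T 9 weeks replicate 5 by 2.00, whereas the next closest of 210 MN-TRAP pairs differed by 10.7 (sampling noise alone gives 1). The library labelled Chat bacTRAP 14 weeks replicate 4 held reads of Y-linked genes although the mice were reported as female, and 3 MN-TRAP libraries held under 3000000 counts. The shallow libraries were hTDP-43 WT 9 weeks replicate 1, Chat bacTRAP 9 weeks replicate 3 and Chat bacTRAP 14 weeks replicate 2. Results are given with all libraries, and values without these 7 are added for many of the calls.

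Potassium channels let potassium leave a cell, or enter it in the case of the inward rectifiers, and thereby set the resting potential and end the action potential. Voltage-gated families (Kcna to Kcnd, Kcnq, Kcnh) repolarise the membrane, silent modifiers (Kcng, Kcns, Kcnf, Kcnv) assemble with Kcnb subunits, calcium-activated channels (Kcnma, Kcnn) shape the pause after a spike, tandem-pore channels (Kcnk) carry the leak, and Kcnj genes encode inward rectifiers. Accessory subunits are encoded by Kcnab, Kcne, Kcnip and Kcnmb genes. In the cord, motor neurons use leak and calcium-activated channels to set their firing rate, and glia use inward rectifiers to clear potassium released by neurons.

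The first comparison, MN-TRAP over spinal cord within each genotype with both ages together, asked which channel mRNAs were in motor neurons. A gene was called at a Benjamini-Hochberg adjusted p below 0.05 in edgeR's quasi-likelihood test and at least a 2-fold difference. In A315T, 12 of the 87 channel genes were higher in MN-TRAP (13.8%, against 13.3% of all genes tested) and 30 were lower (34.5%, against 24.1%). In hTDP-43 WT, 13 were higher (14.9%, against 9.80%) and 19 lower (21.8%, against 19.8%). In Chat bacTRAP, 10 were higher (11.5%, against 9.25%) and 21 lower (24.1%, against 22.8%). The median log2 differences of the family were -0.16 in A315T, -0.16 in hTDP-43 WT mice and -0.20 in Chat bacTRAP beside -0.10, -0.15 and -0.21 over all genes. Summed over the 96 genes, channel mRNA made up 4113 to 7534 CPM in MN-TRAP (median 5297) and 4112 to 5302 CPM in spinal cord (median 4596). The direction was the same in all 3 genotypes for 71 of the 87 genes. In bulk samples, fewer cells of a type and less RNA per cell cannot be told apart.

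Called higher in all 3 genotypes were 9 genes (10.3%, against 6.39% of all genes), among them Kcnmb4, Kcnmb4os2, Kcnj14, Kcnj12, Kcnk3, Kcng4, Kcng1 and Kcnip4. Called lower in all 3 were 15 (17.2%, against 13.4%), among them Kcnj4, Kcnj6, Kcnj10, Kcnj11, Kcnj16, Kcnk6, Kcnk7, Kcnk13, Kcnip2, Kcnip3, Kcnmb1, Kcnmb2, Kcnh8 and Kcns1. Another 6 were higher and 18 lower in 1 or 2 genotypes, and 39 had no call. Without the 7 libraries in doubt, 8 remained higher, with Kcnip4 lost, and 13 remained lower, with Kcnk13 and Kcns1 lost and Kcnk9 added.

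**Figure D1:**
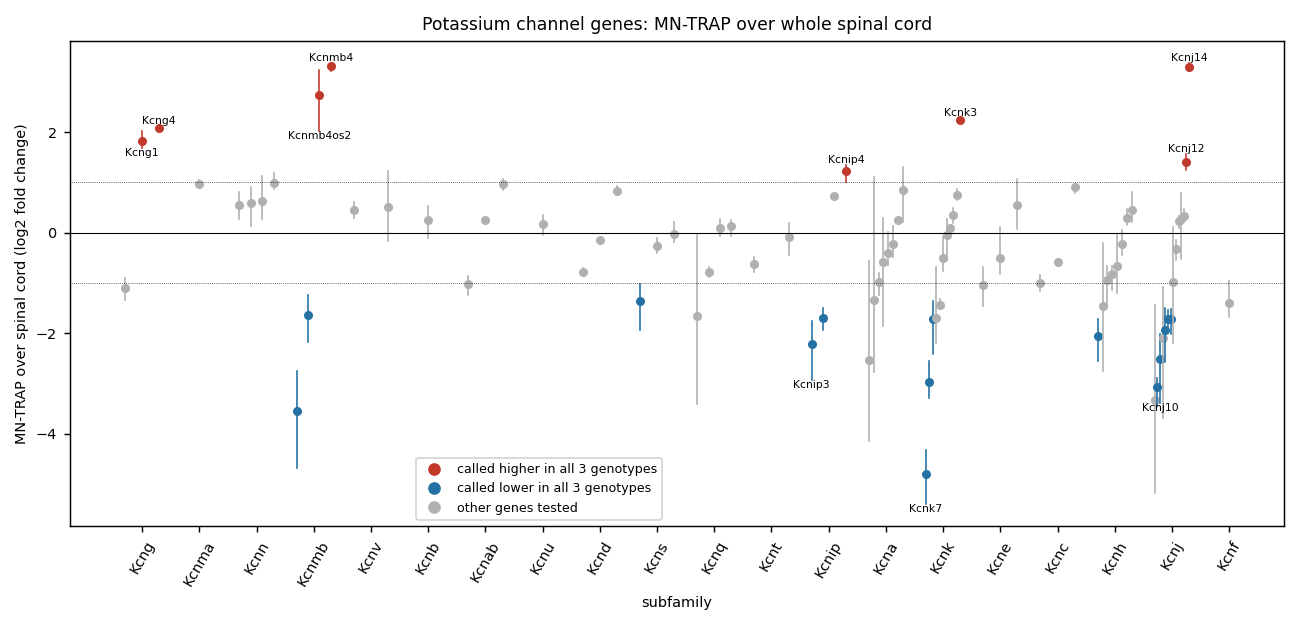
MN-TRAP over spinal cord for channel genes tested, by subfamily. Each point is the mean of the 3 genotypes' log2 differences, each bar spans the 3 genotypes, and colour marks genes called higher or lower in all 3. The Kcnj, Kcnk, Kcnip and Kcnmb subfamilies hold both kinds.

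The start regions of 4 genes whose values are described in full are shown, Kcnmb4 and Kcng4 from the genes higher in MN-TRAP and Kcnj10 and Kcnk13 from those lower. Each window runs from 250 bases before the annotated start to 50 after it, 5′ to 3′ on the gene's strand, from RefSeq on GRCm38.p6, and capitals mark the GC box letters GGGCGG on either strand.
Kcnmb4 (chr10:116473474-116473773, minus strand): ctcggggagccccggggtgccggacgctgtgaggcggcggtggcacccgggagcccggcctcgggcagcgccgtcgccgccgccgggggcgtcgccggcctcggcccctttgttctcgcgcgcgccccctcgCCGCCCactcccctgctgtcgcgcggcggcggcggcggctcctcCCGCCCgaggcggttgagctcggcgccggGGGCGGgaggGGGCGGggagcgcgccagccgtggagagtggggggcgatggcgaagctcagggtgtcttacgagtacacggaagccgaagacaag
Kcng4 (chr8:119635631-119635930, minus strand): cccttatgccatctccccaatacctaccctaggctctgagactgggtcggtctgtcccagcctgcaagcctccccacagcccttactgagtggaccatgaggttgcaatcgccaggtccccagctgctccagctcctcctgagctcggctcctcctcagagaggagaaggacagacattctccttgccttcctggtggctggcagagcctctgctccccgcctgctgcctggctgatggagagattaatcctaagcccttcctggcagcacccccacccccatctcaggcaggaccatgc
Kcnj10 (chr1:172340960-172341259, plus strand): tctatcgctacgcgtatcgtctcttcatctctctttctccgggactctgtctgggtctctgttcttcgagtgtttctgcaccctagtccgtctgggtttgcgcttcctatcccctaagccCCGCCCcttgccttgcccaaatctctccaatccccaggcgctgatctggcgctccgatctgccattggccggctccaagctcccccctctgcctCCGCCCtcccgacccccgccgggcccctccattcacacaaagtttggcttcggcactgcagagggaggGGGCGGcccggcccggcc
Kcnk13 (chr12:99964249-99964548, plus strand): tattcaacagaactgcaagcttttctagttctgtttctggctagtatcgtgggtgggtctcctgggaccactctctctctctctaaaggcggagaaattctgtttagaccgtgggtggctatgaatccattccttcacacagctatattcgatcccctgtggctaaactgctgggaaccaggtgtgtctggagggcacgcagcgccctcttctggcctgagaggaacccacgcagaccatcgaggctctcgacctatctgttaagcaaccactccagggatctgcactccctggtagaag
The Kcnmb4 window held 4 GC boxes at a GC content of 79.0% and the Kcnj10 window 3 at 63.7%, while the Kcng4 window (61.3% GC) and the Kcnk13 window (52.7% GC) held none. Windows were found for 70 of the 96 genes, 95 in all. GGGCGG stood in 46 of the 95 windows (48.4%), against 35.6% of all 32817 windows, and the motif was present in 2 of 6 windows of the genes called higher and in 10 of 18 windows of those called lower. The median GC content was 58% over the 95 windows and 52.7% over all windows. The letters TATAAA stood in 5 of the 95 windows (13.6% of all windows), and TAATTA, the core letters bound by homeodomain factors, in 0 (5.30% of all windows), both strands searched. Matches of TATAAA and TAATTA can share letters, and GGGCGG can share none with either.

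Among calcium-activated channels and their accessory subunits the largest difference toward MN-TRAP was that of Kcnmb4, the neuronal accessory subunit of the large-conductance channel. Kcnmb4 had 19.8, 30.5 and 102 CPM (lowest, median, highest) in MN-TRAP, against 2.54, 3.35 and 6.40 CPM in spinal cord. No MN-TRAP library lay as low as any cord library. The log2 difference was 3.21 ± 0.21 (SE) in A315T, 3.38 ± 0.21 in hTDP-43 WT mice and 3.34 ± 0.20 in Chat bacTRAP, with adjusted p of 1.4e-18, 1.0e-19 and 5.4e-20. Kcnmb4os2, a noncoding RNA from the opposite strand of Kcnmb4, had 0.411, 4.10 and 12.2 CPM in MN-TRAP, against 0.236, 0.652 and 1.51 CPM in spinal cord. Its lowest MN-TRAP libraries lay among the cord libraries. Exons of Kcnmb4 and Kcnmb4os2 overlap and the counting did not use strand, so their reads cannot be told apart and both values are uncertain.

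The pore subunit that Kcnmb4 joins, Kcnma1, was called higher only in hTDP-43 WT, by a log2 difference of 1.04 ± 0.23 that fell under 2-fold without the 7 libraries in doubt (0.74), without hTDP-43 WT 14 weeks replicate 1 (0.97) or 9 weeks replicate 3 (0.87), and was 0.18 with a glial marker score as a term in the model. It had 0.89 ± 0.23 in A315T and 0.99 ± 0.23 in Chat bacTRAP. Kcnmb1 and Kcnmb2, 2 other accessory subunits of this channel, were lower in all 3 genotypes. Kcnmb2, which makes the channel inactivate, had 0, 1.47 and 7.13 CPM in MN-TRAP and 3.32, 5.09 and 9.54 CPM in spinal cord, with log2 differences of -1.50, -2.17 and -1.24 in A315T, hTDP-43 WT and Chat bacTRAP. Kcnmb1, the smooth muscle subunit, had a median of 0 CPM in MN-TRAP and 0.605 CPM in spinal cord. Among small-conductance channels, Kcnn1 was called higher in hTDP-43 WT (1.19 ± 0.18). Kcnn3 was called higher there as well (1.13 ± 0.28), but not without the 7 libraries (0.70) or without hTDP-43 WT 9 weeks replicate 1 (0.80), and it had 0.48 in A315T (adjusted p = 0.108) and 0.26 in Chat bacTRAP (adjusted p = 0.428), which was -0.13 without the 7 libraries, while Kcnn2 had log2 differences of 0.57, 0.80 and 0.27 in A315T, hTDP-43 WT and Chat bacTRAP, under the 2-fold limit. Kcnn1 shares an exon with another gene and is uncertain.

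Inward rectifiers differed in both directions. Of 14 Kcnj genes, 2 were higher and 5 lower in all 3 genotypes, and their log2 differences, averaged over genotypes, ran from -3.34 to 3.30. Kcnj14, a strong inward rectifier described in brainstem motor nuclei of the rat, had 82.6, 144 and 222 CPM in MN-TRAP, against 10.5, 14.7 and 17.8 CPM in spinal cord. Every MN-TRAP library exceeded every cord library. The log2 difference was 3.29 ± 0.15 in A315T (adjusted p = 1.4e-25), 3.22 ± 0.14 in hTDP-43 WT mice (2.8e-26) and 3.38 ± 0.14 in Chat bacTRAP (3.6e-27). Kcnj12, another strong rectifier, had 9.39, 24.7 and 49.98 CPM in MN-TRAP and 6.76, 9.99 and 14.1 CPM in spinal cord, with some overlap at the low end.

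Kcnj10, the rectifier through which astrocytes and oligodendrocytes take up potassium, was lowest against spinal cord among the Kcnj genes above 10 CPM in either fraction. It had 25.7, 48.0 and 280 CPM in MN-TRAP, against 304, 420 and 586 CPM in spinal cord. The highest MN-TRAP library, Chat bacTRAP 14 weeks replicate 1, stood just below the lowest cord library, and the fractions did not overlap. The log2 difference was -3.39 ± 0.32 in A315T (adjusted p = 9.6e-13), -2.02 ± 0.32 in hTDP-43 WT mice (8.6e-07) and -2.11 ± 0.31 in Chat bacTRAP (1.3e-07). Kcnj16, which assembles with Kcnj10, had 1.24, 4.12 and 37.2 CPM in MN-TRAP and 14.5, 24.8 and 53.7 CPM in spinal cord, and log2 differences of -2.57, -1.51 and -1.75. Here 1 or more MN-TRAP libraries lay within the cord range. Kcnj11, the neuronal pore of the ATP-sensitive channel, had 0.292, 2.56 and 11.96 CPM in MN-TRAP and 3.67, 10.4 and 17.7 CPM in spinal cord, with log2 differences of -1.61, -1.52 and -2.02. Kcnj4 and Kcnj6 were also called lower at medians of 0 and 0.399 CPM in MN-TRAP, against 0.397 and 1.18 CPM in spinal cord. Kcnj3, which pairs with Kcnj6 and Kcnj9 in channels opened by G proteins, had 84.7 CPM in MN-TRAP and 68.1 CPM in spinal cord at the median and no call.

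Among leak channels, Kcnk3, an acid-sensitive tandem-pore channel known from motor neurons, was higher in MN-TRAP. Kcnk3 had 135, 227 and 524 CPM in MN-TRAP, against 35.7, 50.7 and 66.8 CPM in spinal cord. No library of 1 fraction lay in the range of the other. Its log2 difference was 2.23 ± 0.17 in A315T, 2.28 ± 0.16 in hTDP-43 WT mice and 2.22 ± 0.16 in Chat bacTRAP, and an exon shared with the gene model Gm9899 makes it uncertain. Kcnk13, a leak channel known from microglia, had 2.04, 7.88 and 32.6 CPM in MN-TRAP and 29.1, 35.6 and 44.5 CPM in spinal cord. Only at the top of the MN-TRAP range did the fractions meet. The log2 difference was -2.41 ± 0.24 in A315T, -1.41 ± 0.25 in hTDP-43 WT mice and -1.36 ± 0.24 in Chat bacTRAP, and in the last 2 it fell under the 2-fold limit without the 7 libraries in doubt (-0.94 and -0.95). Kcnk6 and Kcnk7 were lower at 0.226 and 0 CPM in MN-TRAP, against 2.31 and 0.350 CPM in spinal cord (medians). Kcnk1, the most abundant leak channel gene of the cord per length, had 90.7 CPM in MN-TRAP and 94.2 CPM in spinal cord and no call.

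Silent modifiers of the Kcng subfamily were the group whose summed level differed most, at a median of 554 CPM in MN-TRAP and 134 CPM in spinal cord. Nearly all of it was Kcng4, which in mouse has served as a marker of fast motor neurons and had 218, 494 and 917 CPM in MN-TRAP, against 59.8, 116 and 150 CPM in spinal cord. The fractions did not overlap. The log2 difference of Kcng4 was 2.12 ± 0.17 in A315T, 2.02 ± 0.17 in hTDP-43 WT mice and 2.09 ± 0.16 in Chat bacTRAP. Kcng1 had 14.8, 45.7 and 105 CPM in MN-TRAP and 7.52, 13.9 and 21.1 CPM in spinal cord, with log2 differences of 1.68, 2.01 and 1.75. The fractions overlapped for Kcng1. Kcns1, a modifier from another subfamily, was lower at 0.312, 2.36 and 6.99 CPM in MN-TRAP and 3.74, 6.36 and 9.53 CPM in spinal cord, and Kcnf1 was lower in A315T and Chat bacTRAP.

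Kcnip genes encode calcium-binding accessory subunits of the A-type Kcnd channels, and of the 4, 1 was higher and 2 were lower in all 3 genotypes. Kcnip4 had 112, 181 and 292 CPM in MN-TRAP, against 59.4, 76.4 and 107 CPM in spinal cord. The fractions were next to each other without overlap. Its log2 difference was 1.34 ± 0.13 in A315T, 1.01 ± 0.13 in hTDP-43 WT mice and 1.31 ± 0.13 in Chat bacTRAP, and in hTDP-43 WT it was 0.74 without the libraries in doubt. Kcnip3, which also acts as a calcium-regulated transcription repressor, had 5.58, 9.75 and 48.6 CPM in MN-TRAP and 38.5, 59.9 and 87.9 CPM in spinal cord, with log2 differences of -2.93, -1.75 and -1.94. Its highest MN-TRAP library, hTDP-43 WT 9 weeks replicate 2, lay within the cord range. Kcnip2 had a median of 6.36 CPM in MN-TRAP and 24.5 CPM in spinal cord, and Kcnip1 had log2 differences of 0.73, 0.77 and 0.71, all with an adjusted p below 0.05 and under 2-fold. The pores they join differed by under 2-fold and in both directions. Kcnd1 had log2 differences of 0.92, 0.77 and 0.78, and Kcnd3 of -0.21, -0.16 and -0.10. Kcnd2 had -0.86, -0.70 and -0.77, each with an adjusted p below 0.05.

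Among voltage-gated pore genes, of the 8 Kcna genes none was called in all 3 genotypes. Kcna1, a channel of the axon beside the node of Ranvier, had 395, 570 and 811 CPM in MN-TRAP and 375, 467 and 756 CPM in spinal cord. The ranges nearly coincided. Kcna6 was called lower in A315T (-1.24 ± 0.17) and had -0.90 in hTDP-43 WT mice and -0.80 in Chat bacTRAP. Kcna5, at 7.96 CPM in MN-TRAP and 4.78 CPM in spinal cord, was called higher in A315T and Chat bacTRAP (1.30 and 1.02, the second call lost without the 7 libraries) and had 0.21 in hTDP-43 WT. In the fast-spiking Kcnc subfamily, Kcnc1 had 95.9, 123 and 219 CPM in MN-TRAP and 187, 245 and 321 CPM in spinal cord. The highest MN-TRAP libraries of Kcnc1 lay within the cord range. It was called lower in A315T (-1.16 ± 0.10) and Chat bacTRAP (-1.03 ± 0.10), and the second call fell under 2-fold without the 7 libraries (-0.97). Kcnc4 had 0.96, 0.95 and 0.79, without a call, and was called in hTDP-43 WT without the 7 libraries (1.02). Of the Kcnq genes, which carry the M-current, Kcnq3 had log2 differences of -0.79, -0.89 and -0.68, each with an adjusted p below 0.05 and under 2-fold, and reached -1.01 in hTDP-43 WT without the 7 libraries. Of the 8 Kcnh genes only Kcnh8 was lower in all 3, at 0.449 CPM in MN-TRAP and 2.23 CPM in spinal cord (medians).

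**Figure D2:**
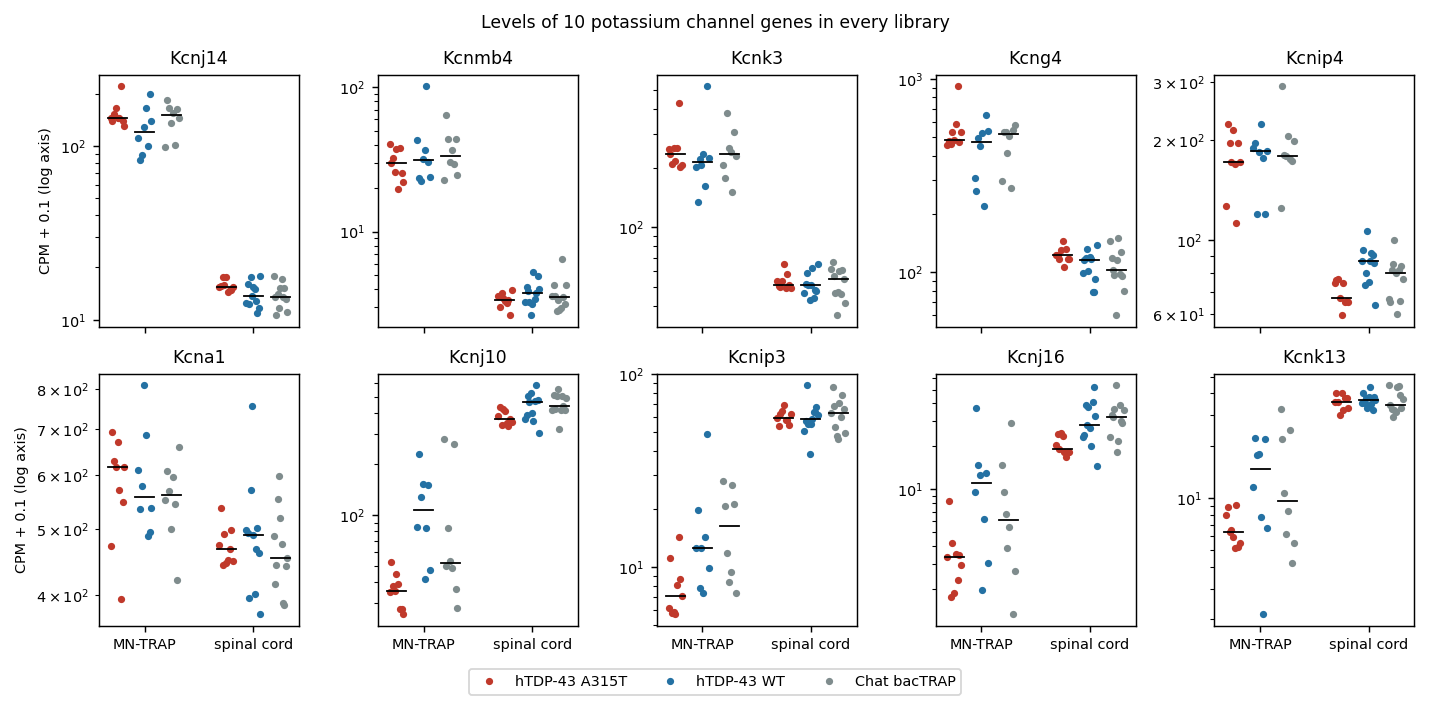
CPM of 10 channel genes in every library on a log axis (0.1 CPM added), MN-TRAP left of spinal cord and coloured by genotype, with bars at the group medians. Kcnmb4, Kcnj14, Kcnk3, Kcng4 and Kcnip4 lie wholly higher and Kcnj10 wholly lower in MN-TRAP.

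Levels of different genes are compared only after division by the length of the union of their exons. In MN-TRAP, high medians were those of Kcnab2, an accessory subunit of Kcna channels, at 144 CPM per kb, Kcng4 at 130, Kcna1 at 119, Kcnk3 at 57.0 and Kcnj14 at 53.0 CPM per kb. In spinal cord Kcng4 had 30.5, Kcnk3 12.8 and Kcnj14 5.42 CPM per kb, and high medians were also those of Kcnab2 at 130, Kcna1 at 97.7 and Kcnj10 at 77.6 CPM per kb. Among the 96 genes Kcnj14 stood at rank 6 in MN-TRAP and 29 in spinal cord, Kcnk3 at 5 and 17, and Kcng4 at 2 and 7. Kcnj10 stood at rank 24 in MN-TRAP and 4 in spinal cord. Kcnab2 and Kcna1 kept ranks 1 and 3 in MN-TRAP and 1 and 2 in spinal cord, and their levels overlapped between fractions. Kcnab2 shares an exon with another gene and is uncertain.

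**Figure D3:**
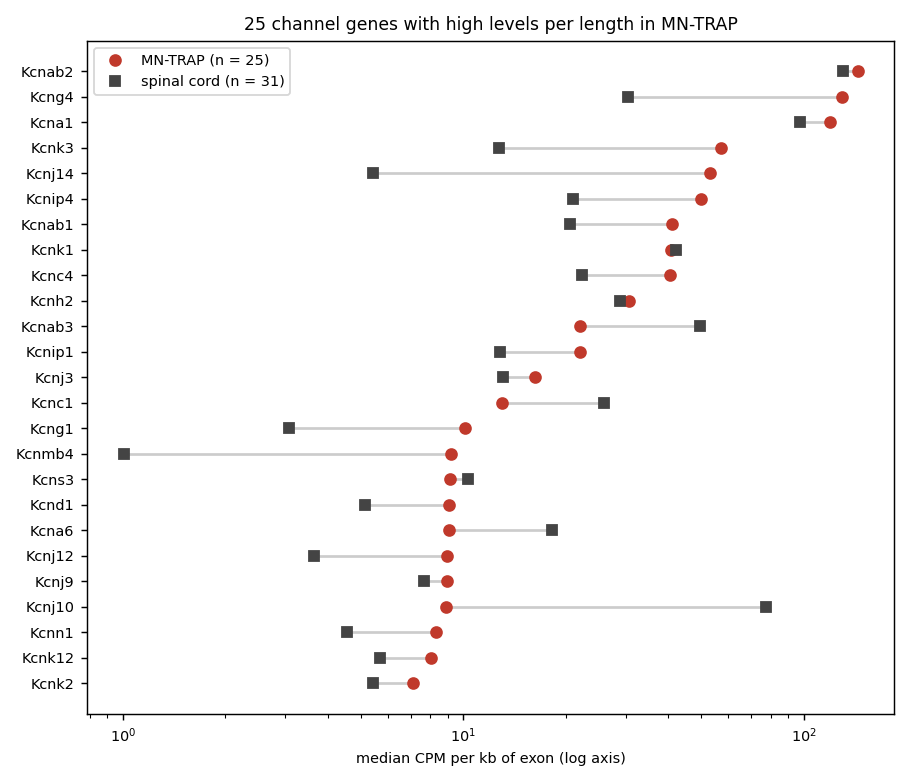
Median CPM per kb of exon for 25 channel genes with high levels in MN-TRAP, MN-TRAP beside spinal cord. Kcng4, Kcnk3 and Kcnj14 are well above their cord medians, and Kcnab2 and Kcna1 are high in both fractions.

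Markers of glia and of other cord neurons moved with these differences. In each genotype 10 of 10 oligodendrocyte and 9 of 9 astrocyte markers were lower in MN-TRAP. So were 7, 6 and 7 of 7 microglial markers in A315T, hTDP-43 WT and Chat bacTRAP. Of 7 markers of other neurons, 6 were lower in each genotype (median log2 differences -1.84, -1.30 and -1.13). All 8 motor neuron markers were higher in each. Which cells the lower channel mRNAs came from was not tested. With the glial score as a term in the model, 14 channel genes were called in A315T (14.1% of all genes were), 19 in hTDP-43 WT mice (16.9%) and 19 in Chat bacTRAP (16.0%). Under it Kcnmb4 (2.58, 2.93 and 2.81 on the log2 scale), Kcnj14 (2.63, 2.81 and 2.83), Kcnk3 (2.13, 2.22 and 2.13) and Kcng4 (1.48, 1.62 and 1.54) were still called higher in A315T, hTDP-43 WT and Chat bacTRAP. Kcnip4 lost its calls in all 3 (0.85, 0.67 and 0.90), and Kcng1 (0.81, adjusted p = 0.125) and Kcnj12 (0.81, adjusted p = 0.0795) lost theirs in A315T. Kcnj10 had -0.62, -0.37 and -0.40 and lost its calls, and Kcnj16 turned to 0.75, 0.26 and 0.48. Other lower genes kept their calls in all 3 genotypes, among them Kcnj11 (-2.19, -1.86 and -2.51) and Kcnip2 (-1.63, -1.48 and -1.28). Of the calls in this fit, 5, 10 and 8 were higher and 9, 9 and 11 lower. The score itself nearly separated the fractions, at 3.45 to 6.62 in MN-TRAP and 6.43 to 7.39 in spinal cord. This fit therefore cannot cleanly part the glial term from the difference between fractions.

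**Figure D4:**
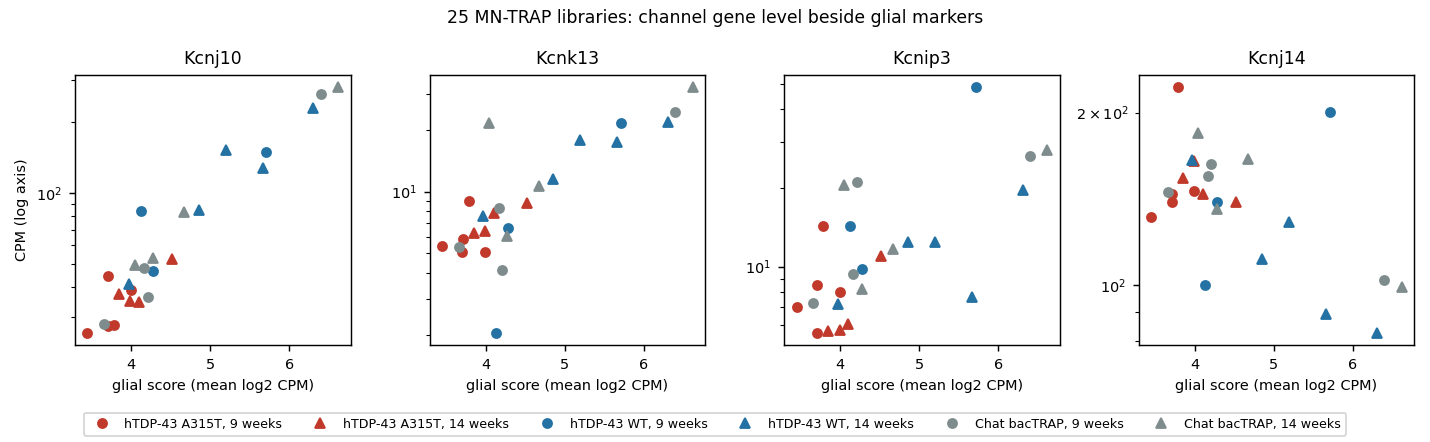
CPM of 4 channel genes (log axis) in each of the 25 MN-TRAP libraries against the mean log2 CPM of 31 glial marker genes, coloured by genotype and shaped by age. The libraries run from 3.45 to 6.62 on the horizontal axis, and those with the most glial RNA hold the most Kcnj10 and among the least Kcnj14.

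Partners and regulators of these channels were 24 genes outside the family, listed with earlier results of these data known. A315T gave 10 calls over cord (4 higher, 6 lower). hTDP-43 WT mice gave 7 (3 higher, 4 lower), as did Chat bacTRAP (2 higher, 5 lower). For comparison, 13.3%, 9.80% and 9.25% of all genes were called higher and 24.1%, 19.8% and 22.8% lower, genotypes ordered alike. Whether the 24 genes depart from these shares was not tested. Of the 24, Lrrc52, a partner of large-conductance channels, was among those higher in all 3 genotypes, at log2 differences of 2.38, 1.22 and 1.22. Lower in all 3 were the scaffold Dlg1 (-1.40, -1.06 and -1.08), the secreted Lgi1 (-2.21, -1.31 and -1.47) and Lrrc55 (-1.47, -1.43 and -1.53). Kcnmb4 and Lrrc55, both accessory to the same pore, thus differed in opposite directions.

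Whether the enrichment itself differed between genotypes was tested as an interaction. At an adjusted p below 0.05, 0 of 87 channel genes differed in A315T minus Chat bacTRAP (0.690% of all genes) and 0 in A315T minus hTDP-43 WT (0.648%), in edgeR. No share of all genes is given for unadjusted-p or DESeq2 counts here or below, so none can be read as particular to channel genes. At an unadjusted p below 0.05 there were 6 and 12 channel genes, DESeq2 called 4 over both and limma-voom 0. Without the 7 libraries 28 were called over both (10.6% and 14.7% of all genes). The point estimates of the 15 lower genes were lowest in A315T for 10 and those of the 9 higher genes highest in A315T for 2.

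Genotypes were compared within MN-TRAP at 14 weeks, the age at which A315T mice were described as showing early motor symptoms, to ask whether channel mRNAs differed in mutant motor neurons. In A315T over Chat bacTRAP, 3 channel genes were called higher (5.24% of all genes were) and 9 lower (5.17%). In A315T over hTDP-43 WT, 0 were higher (0.690%) and 4 lower (4.67%). In hTDP-43 WT over Chat bacTRAP, 4 were higher (9.41%) and 4 lower (3.78%). These 3 comparisons share their libraries in pairs. In a fit of MN-TRAP libraries only, the spread is not shared with cord libraries and 75 channel genes passed the filter. None of these calls was made there, and 0, 0 and 1 of all 16520 genes tested were called. A channel gene that failed the filter could not be called in that fit. Without the 7 libraries in doubt the counts were 20 (22.4% of all genes), 11 (11.6%) and 13 (23.2%).

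Lower in A315T than in both controls were Kcnj10 and Kcnk13, 2 of 87 genes (1.20% of all genes), and 0 were higher than both (0.244%). Kcnj10 had 34.6, 52.6, 37.6 and 35.1 CPM in A315T, against 84.7, 228, 128, 151 and 41.4 CPM in hTDP-43 WT, and 280, 49.7, 83.0 and 53.2 CPM in Chat bacTRAP. The lowest hTDP-43 WT value belongs to the library in doubt, replicate 5, and A315T overlapped each control group through 1 A315T library, replicate 2. The log2 difference was -1.66 ± 0.43 over hTDP-43 WT (adjusted p = 0.0136) and -1.56 ± 0.45 over Chat bacTRAP (adjusted p = 0.0168). Against Chat bacTRAP it was -0.65 (adjusted p = 0.346) without Chat bacTRAP replicate 1, and against hTDP-43 WT the call was lost without A315T replicate 1 (adjusted p = 0.0561), A315T replicate 4 (0.0506) or hTDP-43 WT replicate 2 (0.0553). Without the 7 libraries it was -1.89 and -2.17.

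Kcnk13 had 7.88, 8.78, 6.26 and 6.42 CPM in A315T, against 11.5, 22.0, 17.5, 17.8 and 7.62 CPM in hTDP-43 WT, and 32.6, 21.8, 10.6 and 6.10 CPM in Chat bacTRAP. A315T libraries lay below all hTDP-43 WT libraries but the one in doubt, and below 3 of 4 Chat bacTRAP libraries. The log2 difference was -1.05 ± 0.34 over hTDP-43 WT (adjusted p = 0.0470) and -1.28 ± 0.36 over Chat bacTRAP (adjusted p = 0.0140), which was -0.73 (adjusted p = 0.220) without Chat bacTRAP replicate 1. The call over hTDP-43 WT was lost without A315T replicate 1 (adjusted p = 0.0996), 2 (0.0585), 3 (0.0973) or 4 (0.121). It was also lost without hTDP-43 WT replicate 2 (0.136), 3 (0.111) or 4 (0.0737). Both genes are lower in MN-TRAP than in cord. The glial score over the same libraries was 3.85, 4.05 and 4.52 (lowest, median, highest) in A315T, 3.97, 5.20 and 6.31 in hTDP-43 WT mice, and 4.04, 4.47 and 6.62 in Chat bacTRAP. Its part in these differences was addressed only by the fit with the glial term, in which 3 channel genes were called in A315T over Chat bacTRAP (5.65% of all genes were) and 0 in A315T over hTDP-43 WT (0.759%). In that fit Kcnj10 had -0.41 over hTDP-43 WT and -0.38 over Chat bacTRAP, and Kcnk13 had -0.29 and -0.60, all without a call.

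Against hTDP-43 WT, 2 further genes were lower in A315T. Kcnd2, an A-type channel, had 25.3, 31.2, 27.6 and 23.1 CPM in A315T and 32.0, 93.9, 64.3, 49.96 and 31.1 CPM in hTDP-43 WT, a log2 difference of -1.01 ± 0.30 (adjusted p = 0.0266). The groups met at their edges, between 31.1 and 31.2 CPM. Kcnj16 had 3.24, 8.18, 1.65 and 4.12 CPM in A315T and 9.55, 37.2, 14.6, 12.4 and 1.89 CPM in hTDP-43 WT, a log2 difference of -1.79 ± 0.55 (adjusted p = 0.0352). Only the library in doubt was low among hTDP-43 WT. Both calls were lost without hTDP-43 WT replicate 2 (adjusted p = 0.144 and 0.230) or replicate 3 (0.0793 and 0.0771). They were also lost without A315T replicate 1 (0.0811 and 0.120) or replicate 4 (0.0849 and 0.0874). That of Kcnj16 was lost without A315T replicate 3 as well (0.0991).

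Against Chat bacTRAP, Kcnip3 had 6.01, 10.96, 5.65 and 5.74 CPM in A315T and 27.9, 20.5, 11.7 and 8.21 CPM in Chat bacTRAP. The groups overlapped through 1 library each, and the log2 difference was -1.27 ± 0.36 (adjusted p = 0.0152), or -0.87 (adjusted p = 0.153) without Chat bacTRAP replicate 1. Kcns1 had 0.671, 0.604, 2.09 and 2.03 CPM in A315T and 2.78, 6.99, 3.58 and 2.31 CPM in Chat bacTRAP, a log2 difference of -1.49 ± 0.45 (adjusted p = 0.0218) with no overlap. The call was lost without Chat bacTRAP replicate 2 (adjusted p = 0.0758), A315T replicate 1 (0.0785) or A315T replicate 2 (0.0761). Kcnh7 had 9.74, 9.76, 6.52 and 7.46 CPM in A315T and 17.0, 34.5, 8.54 and 13.5 CPM in Chat bacTRAP, with overlap, shares an exon with Gca, and was not called without the 7 libraries. The other 4 lower calls rested on reads of 1 library or nearly so. Kcnj13 had 77 counts in Chat bacTRAP replicate 1 and 0 in the other 3, Kcna7 had 48 counts in that library alone, Kcnh4 had 44 counts there, and Kcnh3 had 141 counts in Chat bacTRAP replicate 3 and 0 in the other 3. Without replicate 1 the difference of Kcnj13 turned to 3.63 (adjusted p = 0.523).

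Higher in A315T than in Chat bacTRAP were Kcnn3, Kcnk10 and Kcnq1, and all 3 were also higher in hTDP-43 WT than in Chat bacTRAP (3.49% of all genes were higher in both). Kcnn3, a small-conductance calcium-activated channel that lengthens the afterhyperpolarisation of motor neurons, had 4.14, 3.35, 3.91 and 4.17 CPM in A315T, 6.0, 3.98, 3.53, 3.84 and 3.96 CPM in hTDP-43 WT, and 0.776, 0.822, 2.24 and 2.31 CPM in Chat bacTRAP. Every library with human TDP-43 exceeded every Chat bacTRAP library, where the values rest on 19, 2, 42 and 11 counts. The log2 difference from Chat bacTRAP was 1.31 ± 0.43 in A315T (adjusted p = 0.0340) and 1.44 ± 0.42 in hTDP-43 WT (adjusted p = 0.0116), and without Chat bacTRAP replicate 1 it was 1.01 (adjusted p = 0.156) and 1.15 (adjusted p = 0.0582). The A315T call was also lost without Chat bacTRAP replicate 2 (adjusted p = 0.0703) or A315T replicate 1 (0.0578), 3 (0.0533) or 4 (0.0622).

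Kcnk10, a tandem-pore channel opened by stretch and lipids, had 6.10, 4.69, 4.26 and 2.92 CPM in A315T, 4.7, 3.27, 1.66, 5.79 and 5.90 CPM in hTDP-43 WT, and 0.694, 0.822, 0.0534 and 5.47 CPM in Chat bacTRAP. Only Chat bacTRAP replicate 4, the library with Y-linked reads, was in the range of the groups with human TDP-43. The log2 difference from Chat bacTRAP was 1.54 ± 0.53 in A315T (adjusted p = 0.0437) and 1.48 ± 0.52 in hTDP-43 WT (adjusted p = 0.0337), and without the 7 libraries it was 3.52 and 3.31. The A315T call was lost without any 1 of 6 libraries, down to 1.01 (adjusted p = 0.153) without Chat bacTRAP replicate 3, and with the glial term (1.32, adjusted p = 0.101), and the hTDP-43 WT call without any 1 of 5, down to 0.95 (adjusted p = 0.154) without the same library. Kcnq1, known from heart and epithelia, had 22, 6, 1 and 3 counts in A315T, 11, 0, 0, 6 and 31 counts in hTDP-43 WT and 0 in each Chat bacTRAP library. With counts pooled over each group and a floor of 3 counts for Chat bacTRAP, Kcnq1 was at least 6.22-fold higher in A315T and at least 2.83-fold higher in hTDP-43 WT. Of the 48 hTDP-43 WT counts, 31 came from replicate 5, a library in doubt. These bounds cover counting error only, and Kcnq1 shares an exon with Kcnq1ot1.

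**Figure D5:**
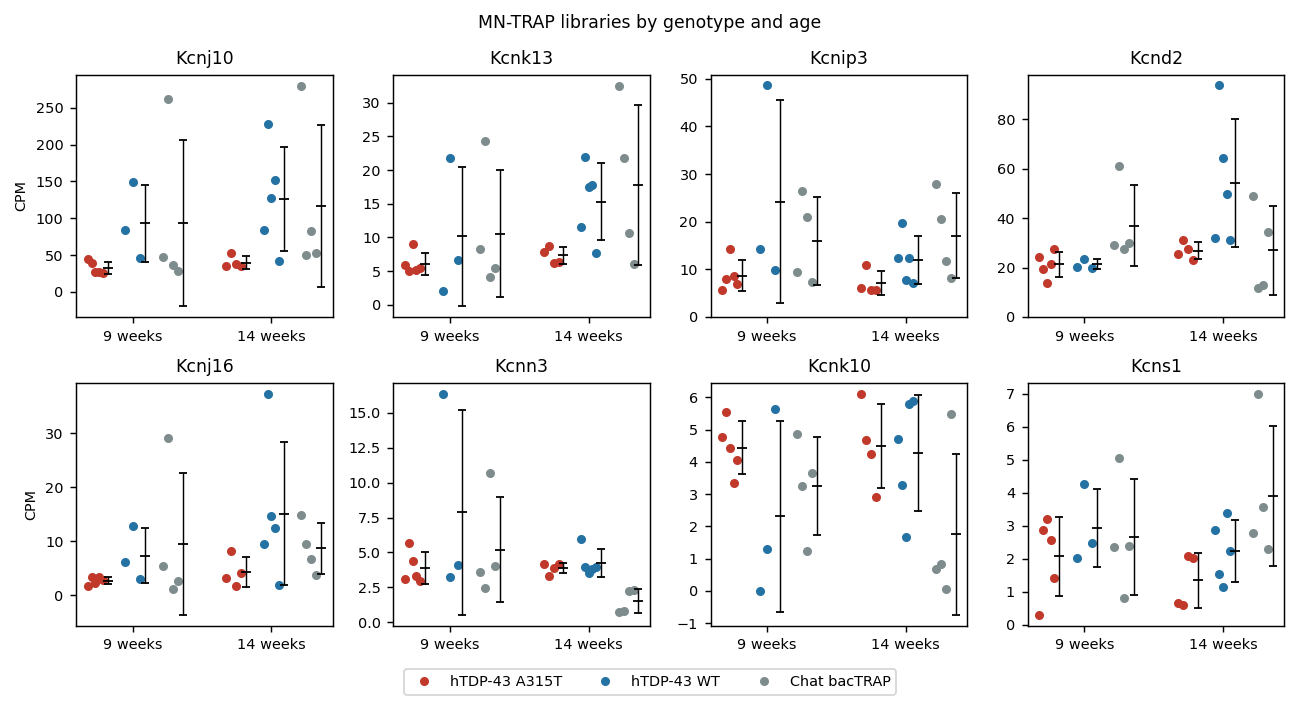
CPM in every MN-TRAP library of 8 channel genes called between genotypes, by age and genotype, with mean and SD beside the points. For Kcnn3 at 14 weeks all A315T and hTDP-43 WT libraries lie above all Chat bacTRAP libraries, and for Kcnj10 Chat bacTRAP replicate 1 stands at 280 CPM.

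The remaining calls between the control lines at 14 weeks were Kcnk6, higher in hTDP-43 WT, and Kcnj13, Kcnh3, Kcnh4 and Kcnn4, lower in it. Kcnk6 had 0.816, 1.72, 0.518, 0.835 and 0.418 CPM in hTDP-43 WT and 0, 0, 0 and 0.631 CPM in Chat bacTRAP. Its log2 difference was 3.44 ± 1.05 (adjusted p = 0.0161). The call was lost without Chat bacTRAP replicate 1 (2.51, adjusted p = 0.0966) or replicate 3 (2.70, adjusted p = 0.0961). Kcnn4, the intermediate-conductance channel of immune cells, had 0.624, 0.238, 0.622, 1.39 and 1.03 CPM in hTDP-43 WT and 3.84, 2.88, 1.23 and 1.05 CPM in Chat bacTRAP, a log2 difference of -1.50 ± 0.54 (adjusted p = 0.0397). Its call was lost without Chat bacTRAP replicate 1 (-0.99, adjusted p = 0.237) or 2, or hTDP-43 WT replicate 1, 2 or 3. For both genes the groups overlapped. Kcnh3, Kcnh4 and Kcnj13 were lower in both lines with human TDP-43 (1.80% of all genes were), through the libraries named above.

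At 9 weeks, when the A315T mice were described as free of symptoms, A315T over Chat bacTRAP gave 0 calls (0.541% of all genes) and hTDP-43 WT over Chat bacTRAP 0 (0.223%). At an unadjusted p below 0.05 edgeR had 14 and 19 channel genes, DESeq2 called 2 and 2 and limma-voom 0 and 0. The share of all genes is not given for these counts, so they cannot be read as particular to channel genes. A315T over hTDP-43 WT gave 0 higher (0.101%) and 3 lower (2.04%). Kcna4, an A-type channel, had 5.31, 5.27, 5.09, 5.995 and 6.17 CPM in A315T and 24.5, 10.01 and 7.63 CPM in hTDP-43 WT without overlap, a log2 difference of -1.08 ± 0.29 (adjusted p = 0.0337), but the highest value rests on 12 counts. The call was lost on leaving out any of 7 libraries, among them hTDP-43 WT replicate 1 (-0.67, adjusted p = 0.217), and fell under 2-fold without the 7 libraries in doubt (-0.85). Kcnip3 had 5.58, 7.99, 14.3, 8.51 and 7.0 CPM in A315T and 14.3, 48.6 and 9.75 CPM in hTDP-43 WT, with overlap (log2 difference -1.60 ± 0.36, adjusted p = 0.00856). Without hTDP-43 WT 9 weeks replicate 2, the only library of that group not in doubt, it was -0.30 (adjusted p = 0.980). With the glial term it was -0.71 (adjusted p = 0.484). Kcnj8, the vascular pore of the ATP-sensitive channel, was at 0.0947 to 0.331 CPM in A315T and had 180 counts in hTDP-43 WT replicate 2 and next to none in the other libraries of that group. Without the 7 libraries the 3 comparisons gave 10, 29 and 23 calls, in the order A315T over Chat bacTRAP, A315T over hTDP-43 WT and hTDP-43 WT over Chat bacTRAP (6.69%, 24.3% and 22.2% of all genes), with 1 hTDP-43 WT library left, assumed to vary like the other groups.

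Ages were compared within genotype, 14 over 9 weeks. In A315T MN-TRAP 0 of 87 channel genes were called (0.0106% of all genes), with 6 at an unadjusted p below 0.05 and 0 in DESeq2. In hTDP-43 WT, 4 were higher at 14 weeks (3.89%) and 6 lower (3.14%). Kcnd2 had 32.0, 93.9, 64.3, 49.96 and 31.1 CPM at 14 weeks and 20.4, 23.6 and 19.9 CPM at 9 weeks, without overlap, and a log2 difference of 1.33 ± 0.36 (adjusted p = 0.0153). Kcnt2, Kcnq5 and Kcnmb2 were the other genes higher at 14 weeks. The 6 lower genes included Kcns2, Kcnj8, Kcna3, Kcnh2 and Kcnip3, and in each of these hTDP-43 WT 9 weeks replicate 2 held the highest value. Kcnh2, for instance, had 76.4, 74.1, 172, 115 and 148 CPM at 14 weeks and 97.9, 438 and 176 CPM at 9 weeks. Without that library none of the 10 genes was called, and the differences of Kcnj8 (2.89), Kcna3 (4.81) and Kcnip3 (0.15) turned positive. The 9-week libraries then left were both in doubt, replicate 1 with 472447 counts and replicate 3 with Lamr1-ps1 reads. Leaving out replicate 2 therefore does not show which 9-week libraries are the odd ones.

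In Chat bacTRAP, 1 channel gene was higher at 14 weeks (1.10%) and 4 were lower (4.05%). The higher gene was Kcnj13, through the 77 counts of 1 library. Kcnn3 had 0.776, 0.822, 2.24 and 2.31 CPM at 14 weeks and 3.62, 2.44, 10.7 and 4.0 CPM at 9 weeks. The ages did not overlap, the log2 difference was -1.62 ± 0.44 (adjusted p = 0.0223), and without the 7 libraries it was -1.02 (adjusted p = 0.138). Kcnk4, a stretch-activated leak channel that shares an exon with Catsperz, had 0.939, 0.411, 0.0534 and 5.47 CPM at 14 weeks and 5.66, 4.77, 11.5 and 7.53 CPM at 9 weeks. Only the 14-week library with Y-linked reads reached the 9-week range. Kcnf1 had 0.653, 0, 1.76 and 2.10 CPM at 14 weeks and 4.8, 5.65, 1.24 and 2.02 CPM at 9 weeks, with overlap. Kcnq1 had 0 counts at 14 weeks and was at least 2.71-fold lower than at 9 weeks against a floor of 3 counts over the group. The 9-week level pooled all libraries, of which replicate 4, in doubt, was the deepest. The Kcnq1 call was lost without the 7 libraries (adjusted p = 0.0612) or without any 1 of 3 libraries. Without the 7 libraries hTDP-43 WT had 31 calls between ages (32.2% of all genes), set against 9 weeks replicate 2 as the 1 library left at that age, and Chat bacTRAP 11 (13.4%). The change with age differed between A315T and Chat bacTRAP for 1 gene, Kcnh4 (-4.12 ± 1.139 on the log2 scale, adjusted p = 0.0422, 1.72% of all genes), which was under 2 CPM in every library, and between A315T and hTDP-43 WT for 0 (0.143%).

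In whole spinal cord, none of the 6 comparisons between genotypes called a channel gene (0.0425% of all genes were called in any), with 1 to 5 genes at an unadjusted p below 0.05 in 5 of them and 0 in the sixth. None of the 3 comparisons between ages did (0.00% of all genes), with 0, 6 and 1 at an unadjusted p below 0.05 in A315T, hTDP-43 WT and Chat bacTRAP. DESeq2 called 0 in both sets. In limma-voom 7 channel genes were called between genotypes, where 0.00531% to 3.12% of all genes were called per comparison, and 1 between ages, where 0.00% to 0.276% were. Kcnj10, lower in A315T MN-TRAP, had 336, 367 and 437 CPM in A315T cord (both ages, lowest, median, highest), 304, 468 and 586 CPM in hTDP-43 WT cord and 323, 438 and 554 CPM in Chat bacTRAP cord. The A315T cord range lay within both control ranges. Kcnn3 had 1.79, 2.81 and 3.93 CPM in A315T cord, 1.23, 2.23 and 4.19 CPM in hTDP-43 WT cord and 1.20, 2.22 and 3.52 CPM in Chat bacTRAP cord, and these ranges overlapped as well.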

How the data were processed

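Per the study's methods, the authors demultiplexed reads with bcl2fastq2 2.17, aligned them to GRCm38 (mm10) with STAR 2.5.2b and counted them per Ensembl gene with featureCounts 1.5.1 at standard parameters. Of 62 sequenced samples they excluded 6. The deposited values are raw counts per gene and library, which were analysed, and a signal that the authors made by dividing the counts by 1 DESeq2 1.14.1 size factor per library, which was not. The NEBNext Ultra kit named in the labels does not mark strand, so genes with shared exons, 25 of the 96 channel genes among them, are uncertain.

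The 56 libraries were fitted in edgeR 4.0.16 (R 4.3.3) as 12 groups, with trimmed-mean normalisation, its default filter on low counts by group and the robust quasi-likelihood test, and p-values were adjusted over 18838 genes. On counts simulated for A315T over Chat bacTRAP MN-TRAP at 14 weeks (18838 genes), 84 of 100 genes changed by 1.5 and 98 of 100 changed by 3 on the log2 scale were called, with 6 false calls. The changed genes were drawn from well-counted genes, and each gene was given the same spread in every group. These rates therefore do not cover genes with few counts or calls that rest on a single library. Symbols were found for 42462 of 43629 gene IDs in GENCODE annotation of GRCm38.

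The genes, lists and tests were chosen with earlier results of these data known. Genes were named by rule: over cord, up to 12 in each direction with the same call in all 3 genotypes and a mean of at least 1 CPM; between genotypes or ages, those called against both controls and up to 6 per direction with the smallest p; and a list of channels with a known place in motor neurons or glia. A few others called or singled out were named after their values were seen. Alternatives were DESeq2 1.42.0, its size factors in edgeR, limma-voom with quality weights (limma 3.58.1), no filter, libraries of 1 fraction alone, a replicate block, a glial marker term and leaving out libraries, each in turn and by set. Counts carry no molecular identifiers, so floors cover counting error only. Some genes are not reported here and are left out of the figures.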

Additional observations from a re-analysis of the deposited data

Results flagged for a closer look

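Within groups of 4 to 10 MN-TRAP libraries, 14 of 53 gene and group pairs held a library set apart from the rest by Dixon's criterion. Chance gives this in about 1 of 20 for unselected values with a normal spread. These genes were taken from calls in the same libraries, and some were at 0 in the group's other libraries. The chance rate thus cannot be applied to them. In the Chat bacTRAP group at 14 weeks, replicate 1 stood apart for Kcnj10 at 280.2 CPM and for Kcnj13 at 3.145 CPM, replicate 3 for Kcnh3 at 7.525 CPM, and replicate 4 for Kcnk10 at 5.471 CPM, Kcnk4 at 5.471 CPM and Kcnk6 at 0.6312 CPM. In A315T at 14 weeks, replicate 2 stood apart for Kcnj10 at 52.59 CPM, Kcnip3 at 10.96 CPM and Kcnj13 at 0.1394 CPM. In hTDP-43 WT at 14 weeks this held for Kcnn3 at 6.0 CPM in replicate 1, Kcnj13 at 0.1189 CPM in replicate 2 and Kcna3 at 0.2317 CPM in replicate 5. In Chat bacTRAP at 9 weeks it held for Kcnj13 at 0.05679 CPM in replicate 2 and Kcnq1 at 0.825 CPM in replicate 3. The change of Kcnh4 with age differed between A315T and Chat bacTRAP by -4.125 ± 1.139 (SE) on the log2 scale in an interaction test (edgeR adjusted p = 0.0422), with 0, 1, 3 and 2 counts in A315T and 44, 0, 6 and 1 counts in Chat bacTRAP at 14 weeks.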

How the results depend on the processing

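MN-TRAP over cord gave 42, 32 and 31 calls in A315T, hTDP-43 WT and Chat bacTRAP, and 14, 19 and 19 with the glial term, where Kcnj16 turned to 0.75, 0.26 and 0.48. Of 69 calls of named genes 35 held under every alternative, against 0 of 24 between genotypes and 0 of 15 between ages. In MN-TRAP at 14 weeks the counts were 12 (A315T over Chat bacTRAP), 4 (A315T over hTDP-43 WT) and 8 (hTDP-43 WT over Chat bacTRAP), at 9 weeks 0, 3 and 0 in that order, and between ages 10 in hTDP-43 WT mice and 5 in Chat bacTRAP. Each of these that was above 0 became 0 with MN-TRAP libraries alone, where 75 channel genes were tested, and 0, 1, 0, 0, 0 and 0 with limma-voom. With the glial term 3 and 0 were called at 14 weeks in A315T against Chat bacTRAP and hTDP-43 WT, and 0 at 9 weeks. DESeq2 gave 2, 5 and 2 at 9 weeks.

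Most counts in this section are given without the share of all genes called. They show how calls move with the processing, and nothing particular to channel genes can be read from them. Without the 3 control libraries holding Lamr1-ps1 reads, A315T over hTDP-43 WT had 8 calls at 14 weeks, the 9-week counts were 7, 22 and 10, and the age counts 19 and 8. Without the library with Y-linked reads, A315T over Chat bacTRAP had 19 at 14 weeks and Chat bacTRAP 9 between ages. Without libraries under 3000000 counts, A315T over Chat bacTRAP had 2 at 9 weeks and Chat bacTRAP 2 between ages. Without all 7, an alternative chosen after seeing the data, the counts were 20, 11 and 13 at 14 weeks, 10, 29 and 23 at 9 weeks, and 31 and 11 between ages. Without the filter Chat bacTRAP had 3 between ages. The 0 calls for a difference in enrichment between genotypes became 4 in DESeq2 and, without those sets of libraries in the same order, 14, 5, 2 and 28. The 1 call for a difference in age change became 3 in DESeq2, 11, 6 and 31 without the Lamr1-ps1, Y-linked and all 7 libraries, and 0 with limma-voom, the glial term, no filter, MN-TRAP alone or the block. In spinal cord limma-voom made 7 calls between genotypes and 1 between ages.

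Deviations of same-numbered libraries from their group means had median correlations near zero, though some pairs correlated. Over 25 MN-TRAP and cord pairs the median was 0.028 (range -0.28 to 0.18), with 5 above 0.1. Over 51 pairs across genotypes it was -0.00046 (range -0.28 to 0.40), with 9 above 0.1. With the replicate block hTDP-43 WT over Chat bacTRAP at 14 weeks had 5 calls, A315T over hTDP-43 WT at 9 weeks 1, and hTDP-43 WT between ages 3.

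Leaving out 1 library at a time gave 39 to 42, 29 to 36 and 28 to 36 calls over cord, 3 to 19, 0 to 8 and 3 to 12 at 14 weeks, 0 to 2, 0 to 23 and 0 to 14 at 9 weeks, 0 to 18 and 0 to 9 between ages, 0 in cord and for A315T ages, 0 to 15 for enrichment differences and 0 to 10 for age differences. With 1 library left out at a time, 8 differences of named genes reached the other sign, each through 1 library. Without Chat bacTRAP 14 weeks replicate 1 this held for Kcnj13, which ranged from -8.27 to 3.63 in A315T over Chat bacTRAP at 14 weeks, from -8.27 to 2.27 in hTDP-43 WT over Chat bacTRAP and from -2.76 to 6.81 between Chat bacTRAP ages. Without Chat bacTRAP 14 weeks replicate 3 it held for Kcnh3 in hTDP-43 WT over Chat bacTRAP (-3.32 to 6.59, and 0.91 in limma-voom). Without hTDP-43 WT 9 weeks replicate 2, the only library of its group not in doubt, it held for Kcnj8 in A315T over hTDP-43 WT at 9 weeks (-4.96 to 1.56). It also held for Kcnj8 (-3.73 to 2.89), Kcna3 (-8.33 to 4.81) and Kcnip3 (-1.63 to 0.15) between hTDP-43 WT ages. In limma-voom Kcnj8 had 0.52 between those ages. Causes were not tested. Channel genes under 1 CPM rest on few counts in the 3 shallowest libraries.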
